A study of Mus musculus with 4 samples.

Results

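The rows described here count mature microRNAs whose hairpins skip the nuclear enzyme Drosha: miR-320-5p (MIMAT0017057) and miR-320-3p (MIMAT0000666), miR-484 (MIMAT0003127), and miR-877-5p (MIMAT0004861). They were taken by their mature ID, together with any other arm on the same strand that starts within 60 bases, which gave 4 of the 2110 rows of the count table. The other arm of miR-877, miR-877-3p (MIMAT0004862), starts 64 bases away and is therefore no member; its counts appear only beside its partner.

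The libraries are small RNA sequencing of extracellular vesicles, the membrane particles that cells release, from C2C12 cells, an established mouse myoblast line that serves as a model of skeletal muscle. The damaged group held 2 libraries of C2C12 with the WT genotype treated with hydrogen peroxide, an oxidant. The WT group held 2 libraries of C2C12 with the WT genotype and WT as their treatment label. Both groups share the cell line, a medium with 10% fetal bovine serum and vesicle collection by differential centrifugation, and the labels give neither dose nor duration of the peroxide. The series compared the microRNA cargo of vesicles from damaged and healthy muscle cells. Whether replicates came from separate cultures is not stated in the labels. The p-values below rest on the spread between libraries, which may be technical and which the fits share in part across rows.

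Most microRNAs are cut out of long primary transcripts by Drosha and its partner DGCR8, exported, and cut again by Dicer. The hairpin of miR-320 is instead transcribed as a short RNA that starts at the hairpin itself and keeps the cap of its first base. In mouse cells this cap is known to hinder loading of the 5p arm into Argonaute, so that the 3p arm is the usual product. The hairpin of miR-484 is likewise known to be made without Drosha. A mirtron such as miR-877 is a short intron whose ends are set by splicing, which after debranching folds into a hairpin that Dicer can cut.

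The known sequences of these microRNAs are given below. RefSeq (GRCm38.p6, the assembly of mm10) gave them for miR-484 and miR-877, and capitals mark the seed, bases 2 to 8, through which a microRNA pairs with its targets.
miR-484: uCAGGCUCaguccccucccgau
miR-877-5p: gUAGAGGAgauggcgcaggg
Of the 1734 rows with a RefSeq sequence, no other row had either seed; rows without a sequence, those of miR-320 among them, were not searched. miR-484 holds 10 C and 4 G in its 22 bases, and miR-877-5p holds 11 G and 2 C in its 20 bases. Both are therefore rich in G and C, at 63.6% and 65.0%.

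The hairpins follow, with capitals now marking the mature rows that were counted.
Mir484: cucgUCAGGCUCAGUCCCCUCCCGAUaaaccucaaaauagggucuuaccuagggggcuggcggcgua
Mir877: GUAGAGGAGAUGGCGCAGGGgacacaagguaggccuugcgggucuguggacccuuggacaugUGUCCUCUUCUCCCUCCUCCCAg
The Mir877 hairpin begins with GU and ends with AG, the usual bases at the ends of an intron. On chr17:35960730-35960814 (mm10, minus strand) its 85 bases are the whole intron between exons 12 and 13 of Abcf1, with 0 intron bases outside it. The row of miR-877-5p, at chr17:35960795-35960814, is the first 20 bases of that intron. Abcf1 encodes an ATP-binding protein that takes part in starting translation.

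The row of miR-484 lies at chr16:14159630-14159651 on the plus strand, within Marf1, which runs on the minus strand. It shared 0 bases with Marf1 exons, whereas the end of its 67-base hairpin overlapped exon 2 of transcript Marf1-202 by 19 bases. The hairpin of miR-320 spans chr14:70443510-70443591 on the plus strand, with miR-320-5p at chr14:70443525-70443546 and miR-320-3p at chr14:70443557-70443578. It lies outside annotated protein genes, 62 bases from the 5′ end of Polr3d, a subunit gene of RNA polymerase III that runs the other way. Counting ignored strand, and no member row shared bases with another miRNA row on the opposite strand.

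**Figure D1:**
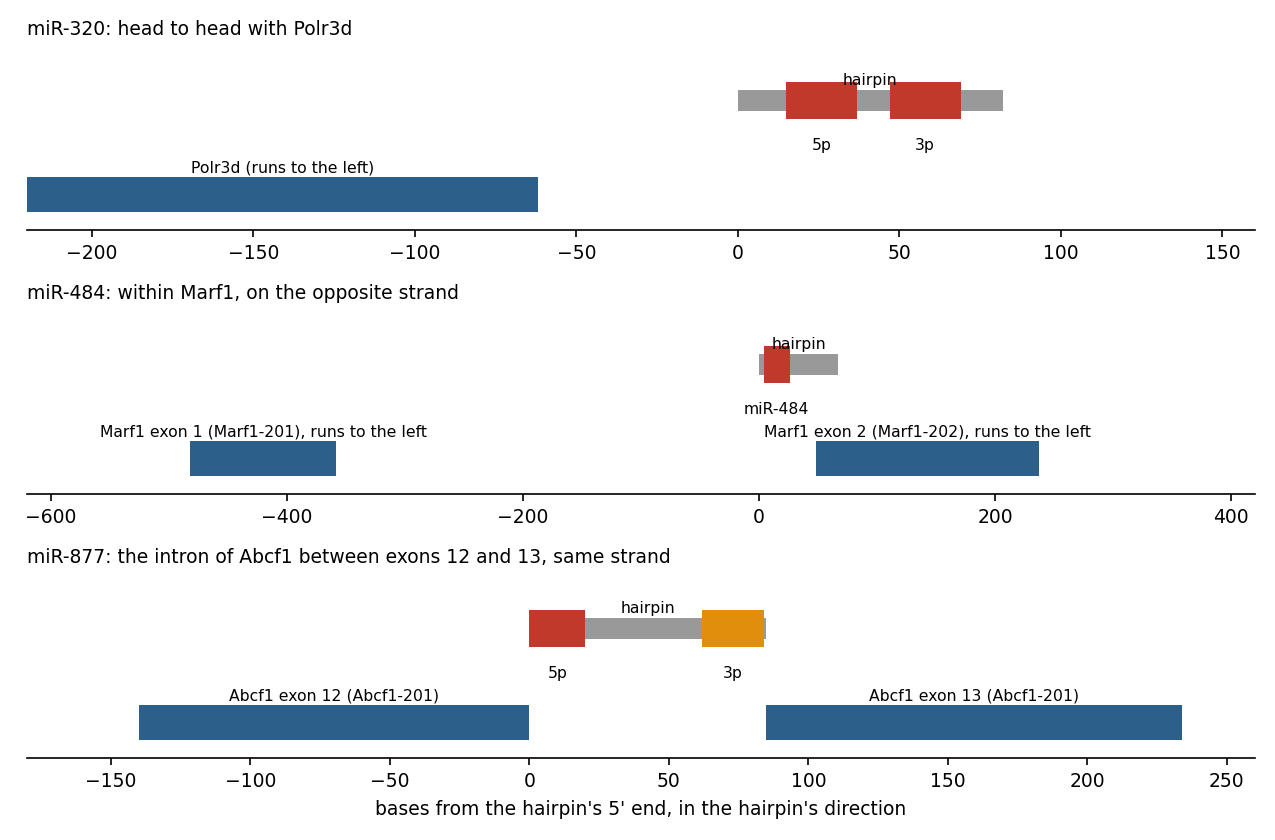
Position of the 3 hairpins and their counted rows, in bases from each hairpin's 5′ end. Grey bars are hairpins, red bars the 4 member rows, the orange bar miR-877-3p, and blue bars annotated protein-gene exons (for Polr3d the gene); the Mir877 hairpin fills the gap between exons 12 and 13 of Abcf1.

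Library totals were 6901394 and 7350345 counts in damaged replicates 1 and 2 and 4577668 and 7638663 in WT replicates 1 and 2, over 692 to 746 rows with counts. Of 4 muscle markers, miR-206-3p, miR-133a-3p, miR-133b-3p and miR-1a-3p were all detected, with 36.8% ± 1.84 of counts in damaged and 31.4% ± 2.79 in WT (SD, n = 2 each). Of their 5 tested rows edgeR called 3 higher in damaged, both rows of miR-133a-3p (log2 fold changes of 1.14 and 1.12) and that of miR-133b-3p (1.22), and 0 lower, with a median of 1.12. Both miR-133a-3p rows carry the same mature ID, so they are not separate results. miR-206-3p (0.18) and miR-1a-3p (0.28) were not called. Over all 536 tested rows edgeR called 4.1% higher and 9.51% in either direction. Of the blood and liver markers, miR-122-5p was at 0 in every library in a row that overlaps an opposite-strand entry, and miR-486a-5p was not matched by name. The other 3 were tested and edgeR called 0 (1 at an unadjusted p under 0.05; DESeq2 and limma-voom also called 0). Their list held 0.147% ± 0.00513 of counts in damaged and 0.159% ± 0.0133 in WT (SD, n = 2 each). miR-144-3p had 12 and 14 counts in damaged and 0 and 0 in WT, miR-223-3p had 99 and 108 counts in damaged and 119 and 100 in WT (log2 fold change -0.44), and miR-451a had a log2 fold change of -0.14. Entries that may be pieces of other RNAs, such as rRNA or tRNA, took 0.672% and 0.719% of counts in damaged and 0.212% and 0.318% in WT. Of 14 such rows tested, 4 were called higher and 1, miR-5099-3p (log2 fold change -0.83), lower in damaged, beside the 4.1% higher and 9.51% in either direction over all tested rows. Their median log2 fold change was 1.64, and 2 further rows were at 0 everywhere. miR-6240 was the largest of them, with 34541 and 40961 counts in damaged and 5227 and 16836 in WT. The miR-133 rows and the summed share of these entries, though not each entry, were higher in damaged, as were the members called below. Their part in the results on the members was not tested.

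The members held a larger share of counts in both damaged libraries than in either WT library. Together they had 7601 and 7793 counts in damaged replicates 1 and 2, or 0.110% and 0.106% of all counts, against 3022 and 5913 counts, or 0.0660% and 0.0774%, in WT replicates 1 and 2. The mean share was 0.108% ± 0.00291 in damaged and 0.0717% ± 0.00806 in WT (SD, n = 2 each), and an exact two-sided permutation test gave p = 0.333, the smallest p that 2 libraries against 2 allow. In TMM-scaled CPM, counts scaled for depth with edgeR's TMM factors and used from here on, the means of the members summed to 350 more in damaged than in WT. miR-484 made up 139 of these, miR-320-3p 108, miR-320-5p 96.1 and miR-877-5p 6.97.

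Of the 4 members, all of which passed the filter on low counts, edgeR's quasi-likelihood test called 2 higher in damaged, miR-320-5p and miR-484, at a Benjamini-Hochberg adjusted p under 0.05. None was called lower. Of the 536 rows tested, 9.51% were called in either direction and 4.1% were called higher. The median log2 fold change was 0.02 over all tested rows, and the 4 members had 2.42, 0.75, 0.76 and 0.29 for miR-320-5p, miR-484, miR-877-5p and miR-320-3p. A group of 4 rows from 3 hairpins is small, and the arms of miR-320 share their precursor.

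**Figure D2:**
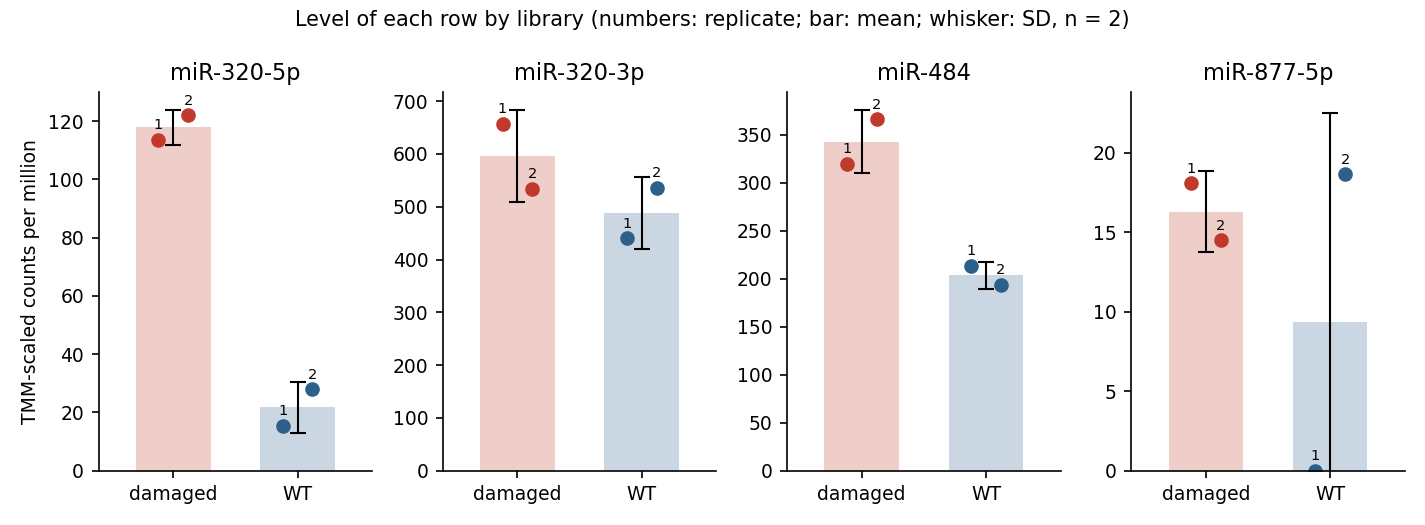
TMM-scaled CPM of each member in the 4 libraries, damaged left of WT; points are libraries with their replicate number, bars means and whiskers the SD (n = 2), which for miR-877-5p in WT reaches below the axis. The groups do not overlap for miR-320-5p and miR-484, overlap for miR-320-3p, and for miR-877-5p the value of WT replicate 1 is 0. The share of all tested rows whose groups do not overlap was not counted. Other rows, such as miR-133b-3p and miR-7a-5p, also separated, so the separation does not set these members apart.

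miR-320-5p, the arm that the capped precursor is not known to favour, had the highest log2 fold change of the members with all 4 libraries. It had 779 and 918 counts in damaged replicates 1 and 2 and 70 and 213 in WT replicates 1 and 2, or 114 and 122 CPM in damaged against 15.5 and 28.0 CPM in WT. The libraries of the groups stood well apart, and the WT replicates differed from each other by more than the damaged ones. How many of all tested rows separate was not counted. Rows outside the members also did, such as miR-133b-3p in the same direction and miR-7a-5p in the opposite one. The mean was 118 ± 5.98 CPM in damaged and 21.7 ± 8.82 CPM in WT (SD, n = 2 each). By edgeR the damaged group was 5.37-fold higher, or 2.42 ± 0.33 (SE) on the log2 scale with an adjusted p of 0.0186, the 10th highest among the 536 rows. The other 9 settings on 4 libraries that could be applied to it gave 2.34 to 2.48 and adjusted p from 5.84e-17 to 0.0201. The lowest came from edgeR with no filter (5.84e-17) and with the replicate number as a block (2.24e-13). Both fits took the spread almost wholly from all rows, so these values say little of how the replicates of this row differ. With 3 libraries its log2 fold change was 2.43 without damaged replicate 1 (adjusted p = 0.111), 2.00 without WT replicate 1 (adjusted p = 0.134) and 2.95 without WT replicate 2 (adjusted p = 0.132); edgeR called 0 rows of the table in these 3 fits. Without damaged replicate 2 it was 2.37 (adjusted p = 0.0268). Each such fit leaves 1 group with a lone library, which is assumed to vary like the other group, so the spread comes from that other group alone.

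miR-320-3p, the main product of the hairpin and the most abundant member, was not called. It had 4508 and 4015 counts in damaged replicates 1 and 2 and 1988 and 4083 in WT replicates 1 and 2, or 658 and 534 CPM in damaged and 440 and 536 CPM in WT. WT replicate 2 lay slightly above damaged replicate 2, so the groups overlapped. The means were 596 ± 87.4 CPM in damaged and 488 ± 67.8 CPM in WT (SD, n = 2 each; log2 fold change 0.29 ± 0.18 SE, adjusted p = 0.334 by edgeR). It was called in none of the other 9 settings on 4 libraries (adjusted p from 0.252 to 0.574).

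The arms of the same hairpin stood in another proportion in the groups. Of the counts of both arms, miR-320-5p held 14.7% in damaged replicate 1 (exact 95% interval 13.8 to 15.7) and 18.6% in damaged replicate 2 (17.5 to 19.7). It held 3.40% in WT replicate 1 (2.66 to 4.28) and 4.96% in WT replicate 2 (4.33 to 5.65). Every damaged value lay above every WT value, with intervals that cover counting error only. How many of the hairpins with both arms tested separate in this way was not counted. Others did, such as Mir125b-1 in the same direction and Mir106b in the opposite one, so the separation does not set miR-320 apart. For each 5p count there were 5.79 and 4.37 counts of 3p in damaged and 28.4 and 19.2 in WT. This ratio within a library does not depend on the scaling.

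The mean log2 ratio of 5p to 3p, with 0.5 added to each count, was -2.33 ± 0.29 in damaged and -4.54 ± 0.40 in WT (SD, n = 2 each), a difference of 2.21. The exact two-sided permutation test gave p = 0.333, again the smallest possible. Over the 152 hairpins with both arms tested, the difference of miR-320 was the 6th highest, and the 15th largest regardless of direction. The median difference was -0.18 and the quartiles were -1.04 and 0.48. A limma fit over these hairpins, added after the values were seen, did not call it (difference 2.21 ± 0.43 SE, unadjusted p = 0.00934, adjusted p = 0.288, and adjusted p from 0.309 to 0.658 with any 1 library left out). That fit called 3 hairpins, or 1.97%, and 0 with 1 added to each count in place of 0.5.

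**Figure D3:**
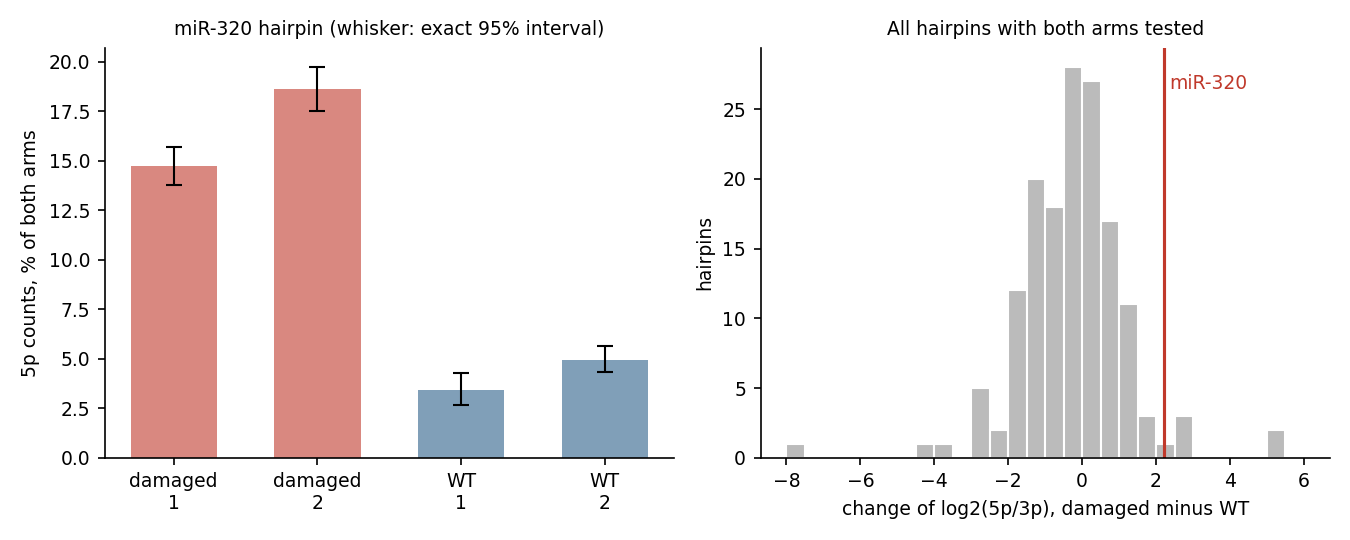
Left, share of miR-320-5p among the counts of both arms in each library, with exact 95% intervals for counting error: 14.7% and 18.6% in damaged against 3.40% and 4.96% in WT. Right, number of hairpins by their change in log2(5p/3p), damaged minus WT, for all 152 hairpins with both arms tested; the red line marks miR-320 at 2.21.

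miR-484, known from heart muscle cells as a regulator of mitochondrial fission through Fis1, rose in damaged. It had 2190 and 2751 counts in damaged replicates 1 and 2 and 964 and 1475 in WT replicates 1 and 2, or 319 and 366 CPM in damaged against 213 and 194 CPM in WT. Both damaged libraries lay above both WT libraries, though how many of all tested rows separate in this way was not counted. The means were 343 ± 32.8 CPM in damaged and 204 ± 14.0 CPM in WT (SD, n = 2 each), a 1.68-fold difference (log2 fold change 0.75 ± 0.16 SE, adjusted p = 0.0460 by edgeR). This p was close to the threshold. The other 12 settings on 4 libraries gave log2 fold changes of 0.69 to 0.79 and adjusted p from 0.00104 (no filter, with the spread shared across rows) to 0.0575. Of these 11 passed and the correction for GC content did not (0.69, adjusted p = 0.0575 by edgeR). The same rows without that correction gave nearly the same value (0.70, adjusted p = 0.0484). With any 1 library left out it was 0.64 to 0.82 and did not pass (adjusted p from 0.111 to 0.222).

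GC content was known for 2 of the 4 members, so a check of the members on GC content is void. Across the 444 tested rows with a sequence, log2 fold change and GC content had a Pearson correlation of 0.03 and a Spearman correlation of 0.11, a description over rows that share the same 4 libraries. The 72 rows with at least 60% GC, among them miR-484 and miR-877-5p, had a median log2 fold change of 0.24, against 0.03 for the rows below. edgeR called 7 of the 72, close to the 9.51% called over all 536 tested rows, so the calls do not set these rows apart.

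miR-877-5p, the mirtron product, had similar levels in 3 libraries and no count in the remaining library. It had 124 and 109 counts in damaged replicates 1 and 2 and 0 and 142 in WT replicates 1 and 2, or 18.1 and 14.5 CPM in damaged and 0 and 18.6 CPM in WT. WT replicate 2 thus had the highest value and WT replicate 1 the lowest. At the depth of WT replicate 1, the rate of WT replicate 2 amounts to 85.1 counts, and the lowest rate of the other 3 libraries to 67.9. A count of 0 there allows up to 0.664 CPM (3 counts). The damaged mean of 16.3 CPM was 24.5 times this limit, but 0.874 times the value of WT replicate 2.

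By edgeR the log2 fold change of miR-877-5p was 0.76 ± 1.38 (SE, adjusted p = 0.804), and without WT replicate 1 it was -0.27 (adjusted p = 0.760). Over the other 12 settings on 4 libraries the log2 fold change was 0.61 to 2.23, the highest by limma-voom (adjusted p = 0.401), and adjusted p was 0.0352 to 0.947, with 1 setting past the threshold. No other row of the table, searched after this value was seen, had 0 counts in 1 library and at least 50 in each of the others. At a minimum of 20 counts in the others there were 4 such rows, namely miR-877-5p, miR-582-3p and miR-200c-3p with 0 in WT replicate 1, and miR-3062-5p with 0 in damaged replicate 1.

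The other arm was nearly absent in all libraries. miR-877-3p had 5 and 9 counts in damaged replicates 1 and 2 and 2 and 12 in WT replicates 1 and 2, and did not pass the filter on low counts. miR-877-5p thus held 96.1% (exact 95% interval 91.2 to 98.7) and 92.4% (86.0 to 96.5) of the counts of both arms in damaged replicates 1 and 2, against 92.2% (86.8 to 95.9) in WT replicate 2. In WT replicate 1 the hairpin had only 2 counts, both of 3p. The mean log2 ratio of 5p to 3p differed by 3.42 between damaged and WT, but by 0.50 without WT replicate 1, so the difference rests on that library. With all 4 libraries the exact permutation test gave p = 0.333, and p = 0.667 with 1 added to each count in place of 0.5.

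**Figure D4:**
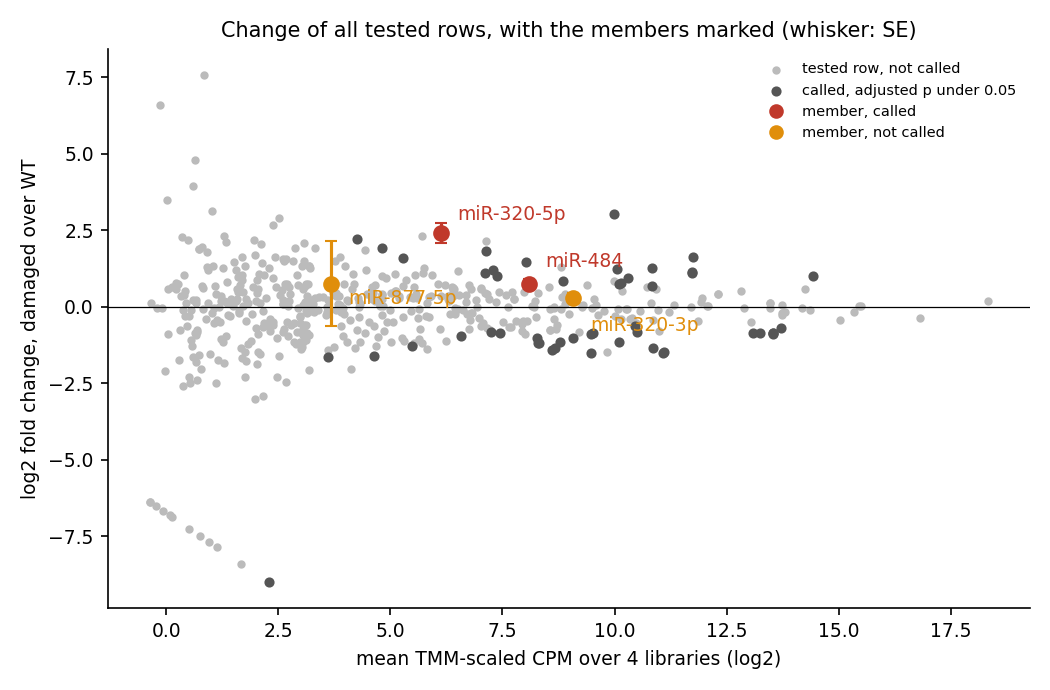
Log2 fold change, damaged over WT, of the 536 tested rows by their mean TMM-scaled CPM on a log2 axis, with the members marked and their SE as whiskers. miR-320-5p and miR-484 (red) were called, miR-320-3p and miR-877-5p (orange) were not; dark points are the other called rows.

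Among themselves the members kept 1 order of level in all 4 libraries, from miR-320-3p through miR-484 and miR-320-5p to miR-877-5p. CPM was not divided by length, since the rows are mature molecules of 20 to 22 bases. By rank, miR-320-3p stood at 77 and 83 in damaged and 92 and 88 in WT, miR-484 at 103 and 95 in damaged and 124 and 124 in WT, and miR-320-5p at 151 and 146 in damaged and 268 and 227 in WT. In WT, miR-320-5p at 15.5 and 28.0 CPM and miR-877-5p at 0 and 18.6 CPM overlapped across libraries; the other neighbours in this order did not overlap within a group. miR-320-3p and miR-484 had the most alike pattern over the 4 libraries, with a Euclidean distance of 0.65 between their log2 CPM centred on each row's mean. The distance between the arms of miR-320 was 2.25, and those to miR-877-5p were 3.65 to 4.79.

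By the same distance, the 3 other rows nearest to each member were as follows. They were picked on the same libraries, so fold changes like those of the member follow from the choice. For miR-320-5p the nearest were miR-3077-3p (0.13), miR-5121 (0.37) and miR-1a-1-5p (0.57). miR-3077-3p is a row at 1.90 and 1.86 CPM in damaged and 0 and 0.263 CPM in WT, where the distance says little. miR-5121, one of the entries that may be pieces of other RNAs, had 35.2 and 28.5 CPM in damaged against 4.43 and 8.93 CPM in WT (log2 fold change 2.22, adjusted p = 0.0356 by edgeR). miR-1a-1-5p, the minor arm of a miR-1 hairpin, had 11.5 and 11.6 CPM in damaged and 1.77 and 4.20 CPM in WT (log2 fold change 1.91, adjusted p = 0.0837).

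For miR-320-3p the nearest were miR-345-5p (0.09), miR-708-3p (0.14) and miR-7075-3p (0.14), with log2 fold changes of 0.33, 0.34 and 0.23. For miR-484 they were miR-145a-3p (0.10), miR-465b-3p (0.15) and miR-10a-5p (0.17), with log2 fold changes of 0.70, 0.62 and 0.75. None of these 6 rows was called by edgeR. miR-145a-3p, the minor arm of the smooth-muscle miRNA miR-145a, had 122 and 143 CPM in damaged against 82.8 and 80.9 CPM in WT (adjusted p = 0.0646). For miR-877-5p the nearest were farther off, at 1.57 for miR-582-3p, 1.98 for miR-200c-3p and 2.37 for miR-701-3p, all of which had 0 in WT replicate 1.

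Other microRNAs made outside the standard route were compared through a list of 13 entries: both arms of the mirtrons miR-702, miR-1224, miR-1981, miR-1982 and miR-3102, miR-451a, which Argonaute 2 cuts in place of Dicer, and both arms of miR-1839, which derives from an H/ACA RNA. Of the 8 rows that passed the filter, edgeR called 0 higher and 0 lower, with 1 at an unadjusted p under 0.05; DESeq2 and limma-voom also called 0. At the 9.51% called over all tested rows, a count of 0 among 8 does not set the list apart. The median log2 fold change of these 8 was -0.10, against 0.02 over all tested rows. The list held 0.192% and 0.179% of counts in damaged and 0.206% and 0.194% in WT, so both damaged libraries lay below both WT libraries. Without miR-451a, a sum added after the values were seen, it held 0.0429% and 0.0373% in damaged and 0.0400% and 0.0459% in WT, and the groups overlapped.

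miR-451a, a miRNA abundant in red blood cells, was its largest row, with 1501 and 1386 CPM in damaged against 1684 and 1490 CPM in WT (log2 fold change -0.14, adjusted p = 0.533 by edgeR). miR-1981-5p, the most abundant mirtron row, had 108 and 80.5 CPM in damaged against 75.1 and 71.0 CPM in WT (log2 fold change 0.37, adjusted p = 0.325). Its partner miR-1981-3p had 31 and 72 counts in damaged and 2 and 21 in WT (log2 fold change 2.06, adjusted p = 0.213). miR-3102-5p had 0 and 0 counts in damaged and 7 and 12 in WT (adjusted p = 0.0837), while miR-3102-3p stood at 11.1 and 9.18 CPM in damaged and 11.5 and 10.2 CPM in WT. The limma fit over hairpins called the balance of these arms (difference in log2 5p over 3p of -4.46, adjusted p = 0.0335). With 1 added to each count in place of 0.5 it called 0 hairpins. A further 5p row of the same hairpin, miR-3102-5p.2-5p, which is not on the list, had 2.04 and 2.13 CPM in damaged and 1.11 and 3.15 CPM in WT (log2 fold change -0.05, adjusted p = 0.985 by edgeR). The remaining mirtron rows, miR-702-3p at 9 and 11 counts in damaged and 14 and 0 in WT among them, had at most 14 counts in any library. miR-1839-5p had 288 and 254 CPM in damaged against 310 and 365 CPM in WT (log2 fold change -0.32, adjusted p = 0.256), and miR-1839-3p had 16.9 and 9.18 CPM in damaged against 1.77 and 8.27 CPM in WT (log2 fold change 1.33, adjusted p = 0.308). Both miR-1839 arms also stand among the entries that may be pieces of other RNAs, and miR-451a also stands among the blood markers.

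**Figure D5:**
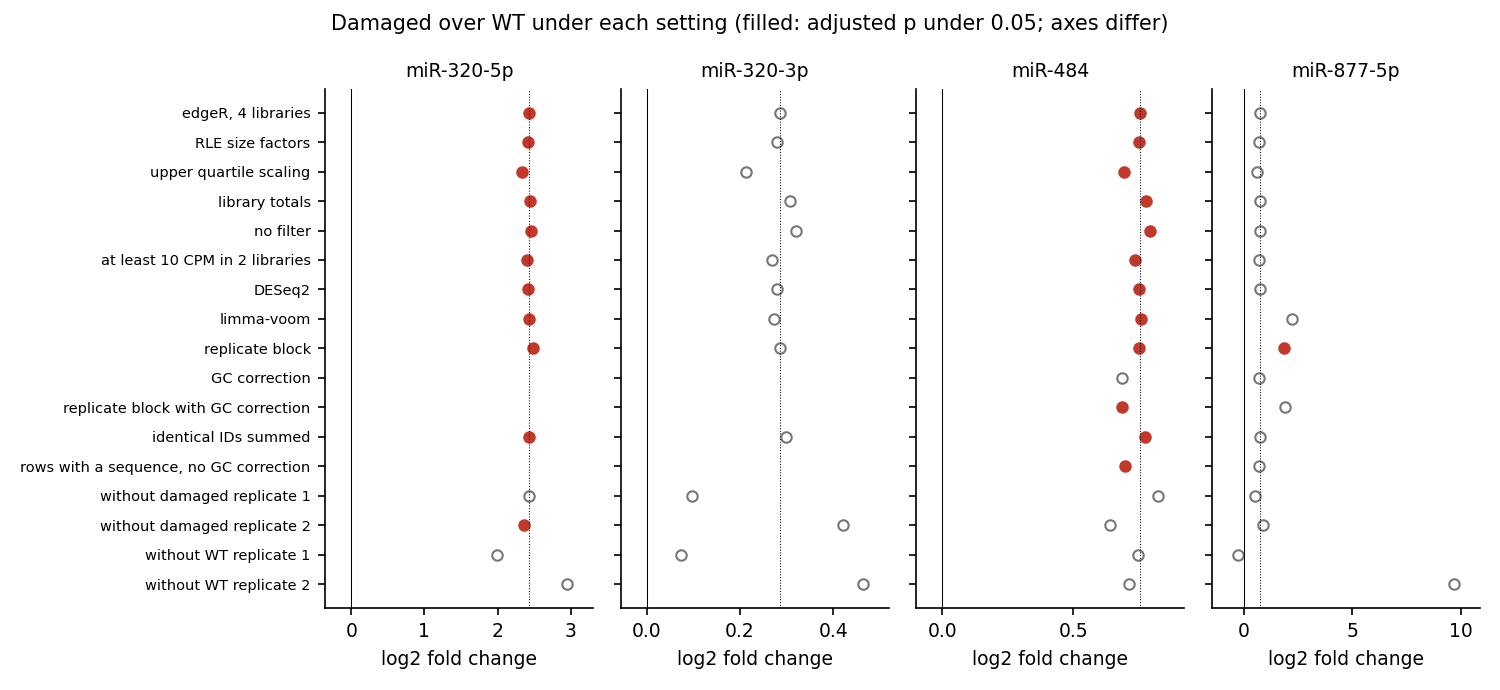
Log2 fold change, damaged over WT, of each member under every setting, with a separate axis per member; filled points have an adjusted p under 0.05, and the dotted line is the edgeR value on 4 libraries. miR-320-5p and miR-484 kept their sign throughout, and miR-877-5p ran from -0.27 without WT replicate 1 to a fitted 9.69 without WT replicate 2, which is no bound because the lone WT library is then at 0.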

How the data were processed

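The deposited file holds raw read counts per mature miRNA row, 1 column per library. The authors aligned reads with BWA to mm10, per the submitters' processing notes, and counted them with featureCounts 2.0.1 over features of type miRNA grouped by ID, per the file headers. The command sets no strand, multi-mapping or overlap option. Neither trimming nor the BWA version is given in these sources.

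Rows were named by exact position in RefSeq (1734 rows), by a shared ID (6) or by position in a GENCODE vM21 hairpin (360); 10 kept their ID. The counts were tested with edgeR 4.0.16 in R 4.3.3 (quasi-likelihood, TMM, a 10-count minimum in filterByExpr, and group alone in the design), with Benjamini-Hochberg adjustment over all 536 tested rows, which held 99.98% of each library's counts. The SE is the log2 fold change divided by the square root of F. Centred log2 CPM used a prior count of 2. Arm ratios were also fitted with limma 3.58.1, taking the first row where a hairpin had several rows of 1 arm. Shares carry exact (Clopper-Pearson) 95% intervals; reads had no molecular identifiers, so intervals and the 3-count floor cover counting error only. A count of 0 allows 0.394 to 0.664 CPM. Other settings were RLE, upper quartile or library-total scaling, no filter or at least 10 CPM in 2 libraries, DESeq2 1.42.0, limma-voom, the replicate number as a block, a loess correction for GC content over rows with a sequence, summed identical IDs, and leaving out each library. The named rows were all members, the 3 nearest rows per member and the listed entries. The members and lists were chosen with earlier results of these data known. The edgeR step was run on simulated data with known changes. Their spread between libraries was set smaller than in these data, so that run does not show how edgeR performs at the present spread.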

Additional observations from a re-analysis of the deposited data

How the results depend on the processing

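The number of rows called moved with the setting: 51 by edgeR as described, 77 with upper quartile scaling, 131 with no filter, 91 with at least 10 CPM in 2 libraries, 109 by DESeq2, 79 by limma-voom, 127 with the replicate number as a block, 27 with the GC correction, 88 with the replicate block and the GC correction, and 0 to 30 with 1 library left out (0 in 3 of these 4 fits, where 103, 124 and 144 rows had an unadjusted p under 0.05; only edgeR was run on 3 libraries). The GC correction tested 444 rows and could not be applied to miR-320; in the same rows without correction, a setting added after the values were seen, 54 were called, and the median log2 fold change was -0.02 against 0.10 with it. miR-484 had a log2 fold change of 0.69 with the GC correction (adjusted p = 0.0575 by edgeR) and 0.70 in the same rows without it (adjusted p = 0.0484). With 1 library left out, miR-320-5p ranged from 2.00 to 2.95, miR-320-3p from 0.07 to 0.46, miR-484 from 0.64 to 0.82 and miR-877-5p from -0.27 to a fitted 9.69, with fewer samples in each fit. The reversal of miR-877-5p to -0.27 follows from leaving out WT replicate 1, where it had 0 counts. Labels do not pair the replicate numbers, and the deviations of same-numbered libraries correlated at 0.003 over 536 rows. With the replicate block miR-877-5p passed (log2 fold change 1.87 ± 0.70 SE, adjusted p = 0.0352 by edgeR), where the SE was 1.38 without the block. That fit took the spread almost wholly from all rows. With the block and the GC correction miR-877-5p did not pass (1.88, adjusted p = 0.282). With the block alone miR-320-5p, miR-320-3p and miR-484 stayed on their side of the threshold. The difference in summed share was 0.0364 percentage points, 0.0307 to 0.0421 with 1 library left out, and 0.0633 as a share of counts without miR-206-3p, a smaller total. The arm difference was 2.21 for miR-320 (1.93 to 2.49 with 1 library left out) and 3.42 for miR-877 (0.50 to 6.34, and 2.98 with 1 added to each count). For the arm balances and the summed share, 2 libraries against 2 cannot pass a permutation test. No sample fell in a group large enough for an outlier test.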
